A study of Homo sapiens with 4 samples.

Results

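The replication-dependent histone genes on chromosomes 1 and 6 were examined for open chromatin at their starts. Members were the protein-coding genes of the GENCODE annotation on hg19 whose symbols are H1, H2AC, H2BC, H3C or H4C followed by a number, or the older HIST1H and HIST2H names. The rule gave 65 of 20163 protein-coding genes, namely 6 for H1, 17 for H2A, 16 for H2B, 13 for H3 and 13 for H4. The cells were H295R/TR SF-1, a subclone of the human adrenocortical tumour line H295R that carries a doxycycline-inducible gene for SF-1 (NR5A1), the nuclear receptor that directs steroidogenic gene expression. Both conditions used this subclone, left at its basal SF-1 level or made to overexpress SF-1 by 3 days of doxycycline before fixation. FAIRE-seq, which sequences the soluble DNA left free of nucleosomes after formaldehyde fixation, gave 34423 sites in the basal list and 31219 with overexpressed SF-1 (the overexpression list), from 1 library each. There is therefore no replicate error behind any difference between the lists, and the 95% intervals given are exact binomial (Clopper-Pearson) intervals that cover counting error only. Neither list gives a read count, a height or a depth, so the absence of a site means only that none was called and does not show closed chromatin. Fewer cells with an open promoter cannot be told apart from a weaker opening in every cell. As a check of the cell label, the starts of the steroidogenic genes CYP17A1 and STAR had a site in both lists, those of CYP11A1 and MC2R in the overexpression list only, and that of NR5A1 in the basal list only. Doxycycline and SF-1 level cannot be told apart in this design.

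Core histones H2A, H2B, H3 and H4 form the protein spool of the nucleosome, and linker histone H1 binds the DNA where it enters and leaves that spool. Dividing cells need large amounts of all of them during S phase, and the genes for them are short, lack introns in their main transcripts, sit in clusters and end in a stem-loop in place of a poly(A) tail. Many H2A and H2B genes lie head to head and share a short stretch between their starts, which serves as the promoter of both.

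The following sequences show what such promoters look like and where they differ. They were read from GRCh37 (hg19), either as the whole stretch between the starts of a divergent H2A and H2B pair or as the 150 bases upstream of a single start, 5′ to 3′ on the strand named. Capitals mark, on either strand, the TATA box (TATAAA), the CCAAT box (CCAAT), ATTTGCAT (the octamer bound by POU2F1), ACAAACAC (an element of H1 promoters, called the H1 box here) and GGTCCG (an element of H4 promoters, called the H4 element here). H2AC14/H2BC14, H3C4 and H4C3 had a site in both lists, H2BC11/H2AC11 and H1-5 in the basal list only, H2BC10 in the overexpression list only, and H2AC1/H2BC1, H3C2, H4C11 and H1-1 in neither.
H2AC14/H2BC14, chr6:27782556-27782799, plus strand: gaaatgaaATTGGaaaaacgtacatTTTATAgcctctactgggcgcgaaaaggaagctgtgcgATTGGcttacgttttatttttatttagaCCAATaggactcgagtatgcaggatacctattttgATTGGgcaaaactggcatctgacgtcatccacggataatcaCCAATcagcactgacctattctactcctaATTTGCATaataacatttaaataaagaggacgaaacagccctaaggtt
H2BC11/H2AC11, chr6:27100575-27100821, plus strand: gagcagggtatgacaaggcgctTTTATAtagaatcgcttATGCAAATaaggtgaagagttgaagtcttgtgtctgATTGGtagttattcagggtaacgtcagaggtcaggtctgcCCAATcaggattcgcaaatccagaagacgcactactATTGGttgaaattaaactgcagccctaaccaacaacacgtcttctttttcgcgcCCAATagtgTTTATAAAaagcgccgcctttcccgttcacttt
H2AC1/H2BC1, chr6:25726791-25727004, plus strand: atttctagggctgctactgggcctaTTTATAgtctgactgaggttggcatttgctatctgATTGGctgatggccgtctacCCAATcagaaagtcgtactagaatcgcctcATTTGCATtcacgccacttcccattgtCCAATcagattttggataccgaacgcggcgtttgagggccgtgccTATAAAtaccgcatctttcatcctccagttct
H2BC10, chr6:26273009-26273158, plus strand: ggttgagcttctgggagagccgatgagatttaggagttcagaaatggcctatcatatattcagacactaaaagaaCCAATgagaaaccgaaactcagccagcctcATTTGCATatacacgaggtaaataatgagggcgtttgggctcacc
H3C4, chr6:26197515-26197664, minus strand: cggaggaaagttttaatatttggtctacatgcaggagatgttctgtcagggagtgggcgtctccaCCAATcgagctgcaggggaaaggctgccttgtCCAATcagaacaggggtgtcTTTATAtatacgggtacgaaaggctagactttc
H3C2, chr6:26032328-26032477, minus strand: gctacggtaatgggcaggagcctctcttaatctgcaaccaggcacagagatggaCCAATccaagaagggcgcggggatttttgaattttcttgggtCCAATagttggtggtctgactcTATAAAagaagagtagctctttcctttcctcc
H4C3, chr6:26104011-26104160, plus strand: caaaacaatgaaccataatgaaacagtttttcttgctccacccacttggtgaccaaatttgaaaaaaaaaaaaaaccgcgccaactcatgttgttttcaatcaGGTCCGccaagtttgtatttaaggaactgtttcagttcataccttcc
H4C11, chr6:27791720-27791869, plus strand: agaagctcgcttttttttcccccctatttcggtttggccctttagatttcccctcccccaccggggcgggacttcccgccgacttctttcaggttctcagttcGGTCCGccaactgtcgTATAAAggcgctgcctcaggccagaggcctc
H1-5, chr6:27835367-27835516, minus strand: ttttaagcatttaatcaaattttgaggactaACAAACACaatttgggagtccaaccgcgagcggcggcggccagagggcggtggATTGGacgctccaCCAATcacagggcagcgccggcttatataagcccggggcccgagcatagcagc
H1-1, chr6:26018016-26018165, minus strand: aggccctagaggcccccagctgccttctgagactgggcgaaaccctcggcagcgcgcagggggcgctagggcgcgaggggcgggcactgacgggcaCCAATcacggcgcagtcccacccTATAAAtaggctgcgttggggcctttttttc

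A promoter was called open where the nearest edge of a site lay within 1 kb of the gene's start. In the basal list 45 of the 65 histone genes (69.2%, interval 56.6 to 80.1%) were open, against 39.4% of all protein-coding genes. In the overexpression list 39 (60.0%, interval 47.1 to 72.0%) were open, against 41.2% of all protein-coding genes. A site in both lists was found for 37 genes (56.9%), against 35.0% of all protein-coding genes. The histone genes thus had an open promoter more often than the genome as a whole in each list, while the order of the lists was the opposite of that over all genes. With a limit of 250 bp in place of 1 kb the shares were 63.1% and 56.9%, against 34.1% and 35.9% of all protein-coding genes. The higher share in the overexpression list was not seen with a stricter rule. Where a site had to cover the start, 19 histone genes (29.2%, interval 18.6 to 41.8%) were open there, against 29.6% of all protein-coding genes. In the basal list 27 (41.5%, interval 29.4 to 54.4%) were open by that rule, against 27.9%. A site in the basal list only was found for 8 histone genes, 12.3% (interval 5.47 to 22.8%) against 4.33% of all protein-coding genes. Among these 8, H1-2 and H1-4 were called through sites past or in the 3′ part of the gene, and H2BC11 and H2AC11 shared 1 site. A site in the overexpression list only was found for 2, 3.08% (interval 0.375 to 10.7%) against 6.13%, which that interval includes. Of these 2, H3C13 was called through the site of H2BC18, whose overlapping basal site ended just beyond the 1 kb limit. The remaining 18 genes had no site in either list. These 65 genes do not count as independent, since 13 sites of each list lay within 1 kb of 2 or more members.

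**Figure D1:**
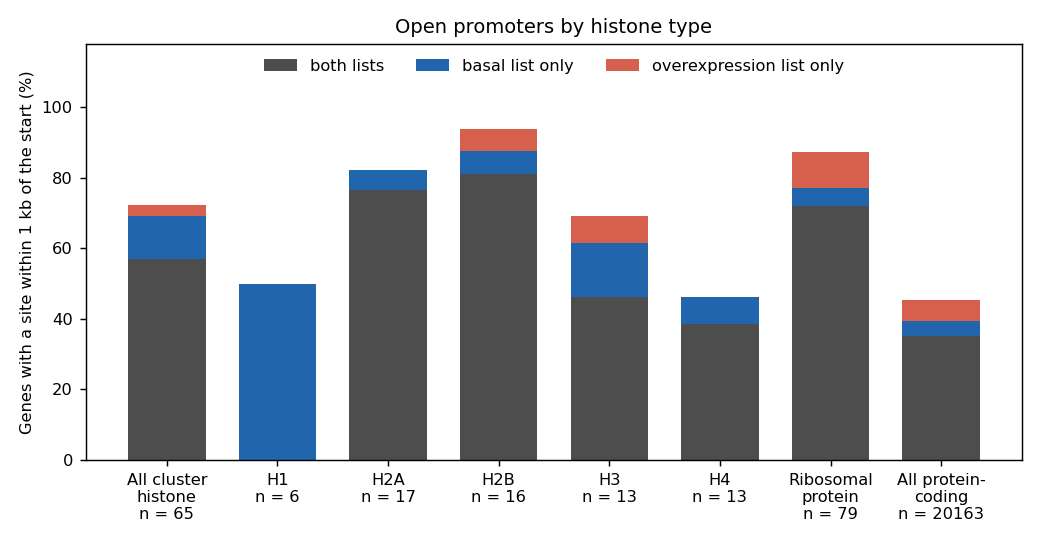
Share of genes (%) with a FAIRE site within 1 kb of the start, stacked by the list or lists that hold it, for all 65 cluster histone genes, each histone type, 79 ribosomal protein genes and all 20163 protein-coding genes. H2A and H2B genes reach above 80%, while no H1 gene is in the overexpression list.

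The H1 genes, which encode the linker histones, were the only type without a site in the overexpression list. Of 6 genes, 3 had a basal site (H1-2, H1-4 and H1-5) and 0 had an overexpression site. The intervals, 11.8 to 88.2% and 0 to 45.9%, include the 39.4% and 41.2% of all protein-coding genes. Only the 199 bp site of H1-5 covered a start, with its centre at -84 bp, negative being upstream (chr6:27835351-27835549). The 299 bp site of H1-2 (chr6:26055451-26055749) and a second H1-5 site of 249 bp (chr6:27834251-27834499) lay past the 3′ ends of those genes. The 249 bp site of H1-4 (chr6:26157201-26157449) lay in the 3′ part of that gene and was also within 1 kb of the start of H2BC5. All 4 sites were missing from the overexpression list. H1-1, H1-3 and H1-6, the last a testis histone, had no site in either list.

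The H2A and H2B genes were open most often. In the basal list 14 of 17 H2A genes and 14 of 16 H2B genes were open, against 39.4% of all protein-coding genes. In the overexpression list 13 of 17 and 14 of 16 were open, against 41.2%. Of these 33 genes, 20 formed 10 divergent pairs whose starts lay 170 to 251 bp apart, with a median of 238 bp. A single site between the starts served 9 of the 10 pairs in the basal list and 8 with overexpressed SF-1. The pair without a site in either list, H2AC1/H2BC1, encodes testis histones and stands apart from the other chromosome 6 genes, and its 214 bp hold the TATA box, the octamer and 3 copies of the CCAAT box. H2BC11/H2AC11 had a 249 bp basal site (chr6:27100551-27100799) and none in the overexpression list. Its neighbour H2BC12/H2AC12 had a site in both lists, 299 bp wide in the basal list and 249 bp in the other.

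The sites of the divergent pairs lay over the stretch between the starts. In the basal list 4 of these 9 sites covered both starts and ran past them, those of H2BC21/H2AC20, H2BC4/H2AC6, H2BC13/H2AC13 and H2AC15/H2BC15. H2BC21/H2AC20 had a 349 bp site in each list, and its peak number, the running position of a site in its list, was 2134 and 2516. H2AC15/H2BC15, the pair with the shortest spacing, had a 299 bp site with the same ends in both lists (chr6:27806051-27806349), numbered 2034 and 5786. H2AC17/H2BC17 went from 299 bp to 249 bp but from number 7094 to number 4193, so that it came second among the histone sites of the overexpression list. H2BC4/H2AC6 had a 249 bp basal site and a 299 bp overexpression site between its starts, the latter numbered 5313. A further site inside H2BC4 was the widest histone site of the basal list, at 549 bp, and measured 349 bp in the other. Its basal centre lay 879 bp downstream of the H2BC4 start, and it counts as inside because the annotation gives that gene 37610 bp.

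Of the 13 H2A and H2B genes outside such pairs, 10 were open in the basal list and 11 with overexpressed SF-1. H2AC21, whose start lies next to that of BOLA1, a non-histone gene, had the earliest number of all basal histone sites, 374, at 349 bp, and a further 249 bp site upstream. In the overexpression list a single site of 749 bp, the widest of all histone sites, covered the places of both. H2AC16 had sites of 349 and 399 bp, numbered 2539 and 5510. H2BC10 was the only H2B gene open in the overexpression list alone, with a 299 bp site over its start and into the gene (chr6:26273101-26273399). Sites of the overexpression list alone also lay inside H2AC20 (199 bp, chr1:149858551-149858749) and upstream of H2AC7 (99 bp, chr6:26200001-26200099). The first of these held an SF-1 motif, CAAGGTCA or CAAGGCCA on either strand. The sites of H3C8 and H2BC13/H2AC13 held it too, in both lists, and both were narrower and later in the overexpression list. The GC content of the H2AC20 site, 71.4%, stood against a mean of 46.2% (SD 8.63 over 34 sites). H2BC6 was open through a start that the annotation places 11702 bp from its canonical start, and at the canonical start only the basal list had a site, of 149 bp. H2AC18 and H2AC19 had no site.

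Among the H3 genes 8 of 13 were open in the basal list (61.5%) and 7 with overexpressed SF-1 (53.85%). The intervals, 31.6 to 86.1% and 25.1 to 80.8%, include the 39.4% and 41.2% of all protein-coding genes. H3C6 carried the second widest basal site, 449 bp, numbered 1702, and a 399 bp overexpression site, numbered 7300. Its canonical start lies 936 bp away, where a further site measured 199 bp and 149 bp. H3C1 and H3C10 had sites over their starts in the basal list only, of 249 bp (chr6:26020501-26020749) and 199 bp (chr6:27777651-27777849). H3C7 had 2 sites of the overexpression list alone, a 99 bp site centred at -87 bp (chr6:26250901-26250999) and a 199 bp site past its 3′ end (chr6:26250201-26250399). Its basal call came from the site of the neighbouring H2BC9. H3C12 and H3C13 were likewise called open through sites at neighbouring H2A or H2B genes, those of H2AC17/H2BC17 and H2BC18, and the canonical start of H3C12, 2280 bp away, had no site in either list. H3C2, H3C11, H3C14 and H3C15 had no site.

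The H4 genes were open least often among the core histones, 6 of 13 in the basal list and 5 with overexpressed SF-1. These shares, 46.15% (interval 19.2 to 74.9%) and 38.5% (interval 13.9 to 68.4%), were near those of all protein-coding genes, 39.4% and 41.2%. The widths of their sites ranged from 99 to 349 bp. H4C3 had 199 bp in the basal list and 149 bp in the overexpression list, H4C4 199 and 99 bp, and H4C5 99 bp in both. H4C8 had 349 and 249 bp, and H4C9 199 bp in the basal list only (chr6:27106801-27106999). The H4C1 site, 349 and 249 bp wide, lay past the 3′ end of the gene in both lists, with its centre 598 and 648 bp from the start. H4C2, H4C7, H4C11, H4C12, H4C13, H4C14 and H4C15 had no site.

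**Figure D2:**
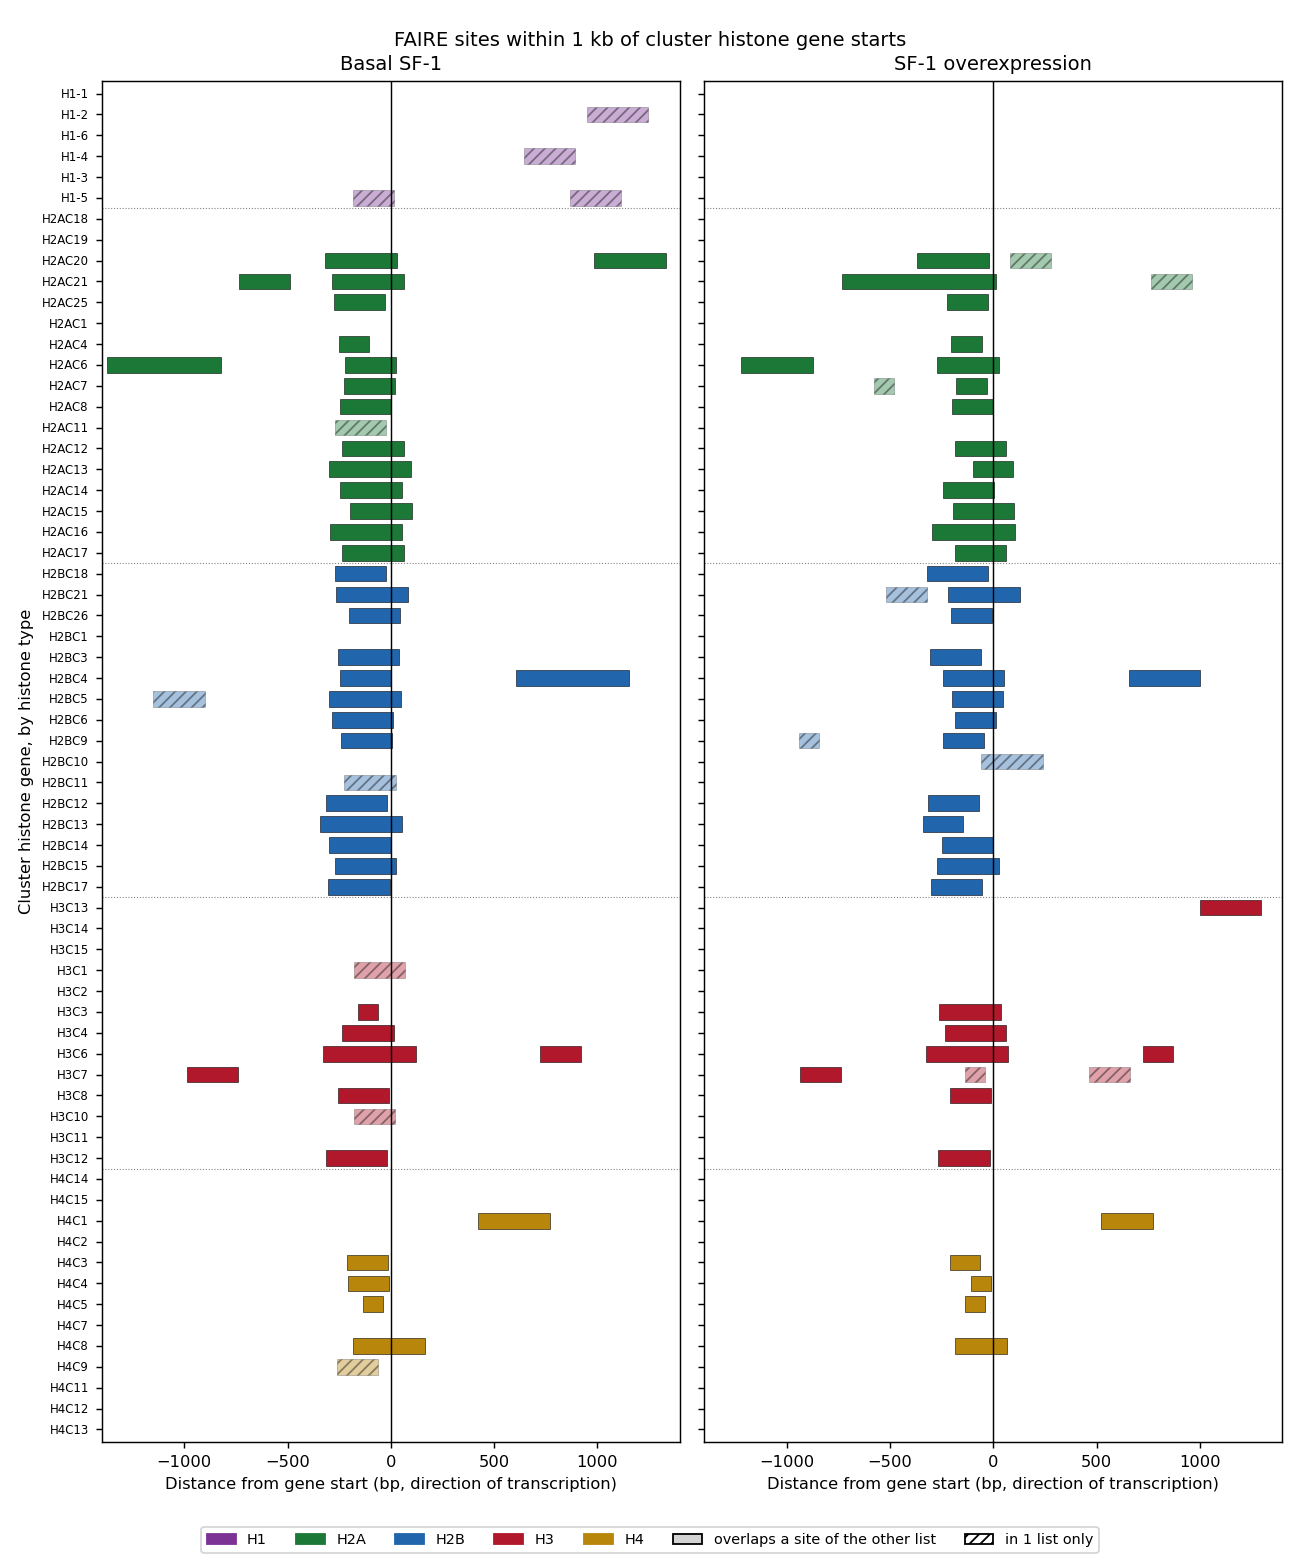
FAIRE sites of each list drawn to scale around the starts of the 65 histone genes, grouped by type, with distance in bp along the direction of transcription; hatched bars overlap no site of the other list. Sites stack just upstream of the start for H2A, H2B and H3 genes, and the 4 hatched H1 bars are in the basal list only.

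Counted only where a site edge lay within 250 bp of the start, 41 genes were open in the basal list, 37 in the overexpression list and 35 in both. The genes dropped by this were H1-2, H1-4, H3C7 and H4C1 in the basal list and H3C13 and H4C1 in the overexpression list, whose sites belonged to a 3′ end or a neighbour.

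By place, the genes fell into 6 clusters, taken as runs with gaps under 200 kb. The largest, 29 genes over 268 kb of chromosome 6, had 22 open genes in the basal list and 20 with overexpressed SF-1, from 22 and 23 sites. The 16 genes over 85.5 kb further along the chromosome had 12 and 10 open, from 8 and 5 sites. Between them, 5 genes over 14.3 kb (H2BC11, H2AC11, H4C9, H2BC12 and H2AC12) were all open in the basal list, while 2 were open in the overexpression list. On chromosome 1 the 11 genes over 75.6 kb had 4 and 5 open (36.4% and 45.5%), near the 39.4% and 41.2% of all protein-coding genes. The separate pair H2AC25/H2BC26 was open in both lists. The 6th cluster is the testis pair H2AC1/H2BC1 of chromosome 6.

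The 11-gene cluster of chromosome 1 holds near-identical gene copies, where short reads have no unique place. In the window from 250 bp upstream to 50 bp downstream of the start, 10 members had at least 50% of their 31-base words in more than 1 place of the genome, namely H4C14, H4C15, H3C13, H3C14, H3C15, H2AC18, H2AC19, H2BC18, H4C11 and H4C12. Of these 10, 1 was open in the basal list and 2 with overexpressed SF-1, and 8 had no site. Of the other 55, 44 (80.0%, interval 67.0 to 89.6%) were open in the basal list, 37 (67.3%, interval 53.3 to 79.3%) in the overexpression list, and 10 had no site. How reads with several matches were handled is not given in the sources used here, and the part of repeated sequence in the missing calls was not tested. Without the repeated promoters, 6 of 9 H4 genes and 8 of 10 H3 genes were open in the basal list.

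The open histone promoters had their sites upstream of the start in a narrow band. The centre of the nearest site lay at a median of -111 bp in the basal list (quartiles -143 to -88 bp) and at -104 bp with overexpressed SF-1 (quartiles -128 to -61 bp). At other protein-coding genes the medians were -57 and -52 bp, with the upper quartile 12 and 23 bp downstream. The centre fell 0 to 200 bp upstream for 41 of 45 open histone promoters in the basal list (91.1%, interval 78.8 to 97.5%). The share over all open protein-coding promoters was 61.7%. In the overexpression list it was 33 of 39 (84.6%, interval 69.5 to 94.1%), against 60.1%. Both genes of a divergent pair were mostly scored from the same site, which lies upstream of both starts by their layout. The intervals ignore this. Among genes in no such pair, the basal counts were 7 of 8 H3 (H3C12 through the H2AC17/H2BC17 site), 5 of 6 H4 and 1 of 3 H1. The site covered the start itself for 27 of 45 and 19 of 39 histone promoters (60.0% and 48.7%), against 70.8% and 72.1% of other open promoters. For H4 genes the site covered the start in 1 of 6 and 1 of 5. Site edges lie on a 50 bp grid, so single distances are known no better than that.

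**Figure D3:**
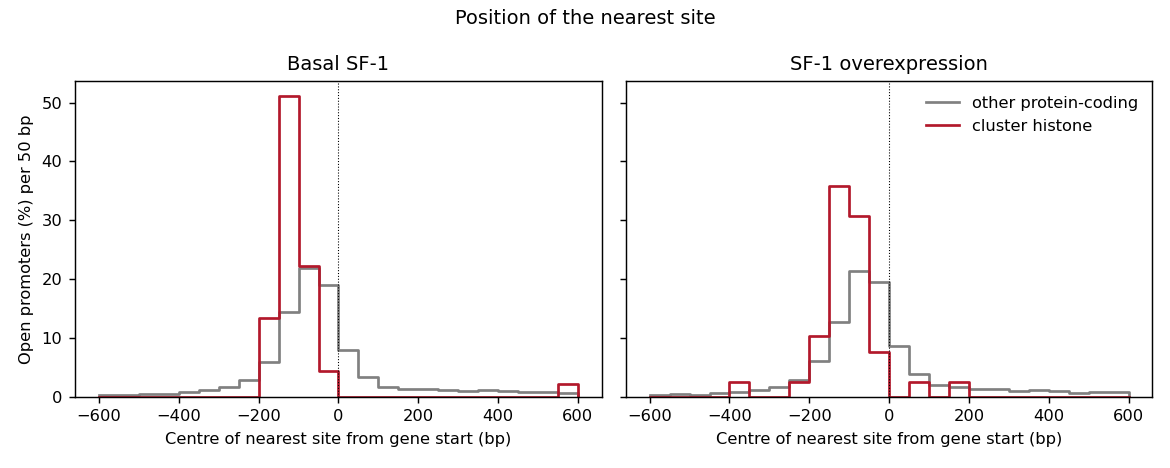
Percent of open promoters by the distance from the gene start to the centre of the nearest site, in 50 bp bins, for cluster histone genes (45 in the basal list, 39 in the overexpression list) and other protein-coding genes. The histone curve peaks between 150 and 50 bp upstream and is near 0 downstream, where the grey curve continues.

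In all, 38 distinct basal sites and 34 overexpression sites lay within 1 kb of a histone gene start. Of the basal sites, 30 (78.9%, interval 62.7 to 90.5%) shared 1 bp or more with an overexpression site, and 29 of the overexpression sites (85.3%, interval 68.9 to 95.05%) shared as much with a basal site. At other protein-coding starts these shares were 84.1% and 79.4%, and over all sites 54.2% and 59.7%. The sites found in 1 list only, 8 and 5, are all named above. The median width was 249 bp in each list, with quartiles of 249 to 299 bp and 199 to 299 bp, against 299 bp at other protein-coding starts. By place, 23 and 20 sites were upstream of a single start, 9 and 8 lay between divergent starts, 3 and 4 within a histone gene and 3 and 2 past a 3′ end.

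Where a basal site and an overexpression site overlapped only each other, their widths and their places in the lists were set side by side. The place is the peak number as a percent of the list length, and what the numbering was sorted on is not given in the sources used here. Of 28 such histone pairs of sites, 19 were narrower in the overexpression list (67.9%, interval 47.7 to 84.1%), 4 had the same width and 5 were wider. Over all 6172 pairs of sites at protein-coding starts 26.9% were narrower and 42.4% wider. The histone sites came later in the overexpression list in 20 of 28 (71.4%, interval 51.3 to 86.8%), against 46.2% over all starts. Their median place went from 26.4% to 48.0%, while that of all starts went from 22.0% to 19.9%. The histone sites were thus more often narrower and later in the overexpression list, while start sites in general were more often wider.

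The changes differed from gene to gene. H2BC13/H2AC13 went from 399 to 199 bp and from 15.1% to 76.2% of the list. H2AC7 went from 249 to 149 bp and from 19.6% to 78.0%, and H2AC8 from 249 to 199 bp and from 19.3% to 61.9%. H2AC25/H2BC26 on chromosome 1 went from 249 to 199 bp and from 20.9% to 66.0%. These were the 4 largest moves towards the end of the list, in H2A genes alone and in divergent pairs. H3C3 went the other way, from 99 to 299 bp and from 98.0% to 42.0%.

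**Figure D4:**
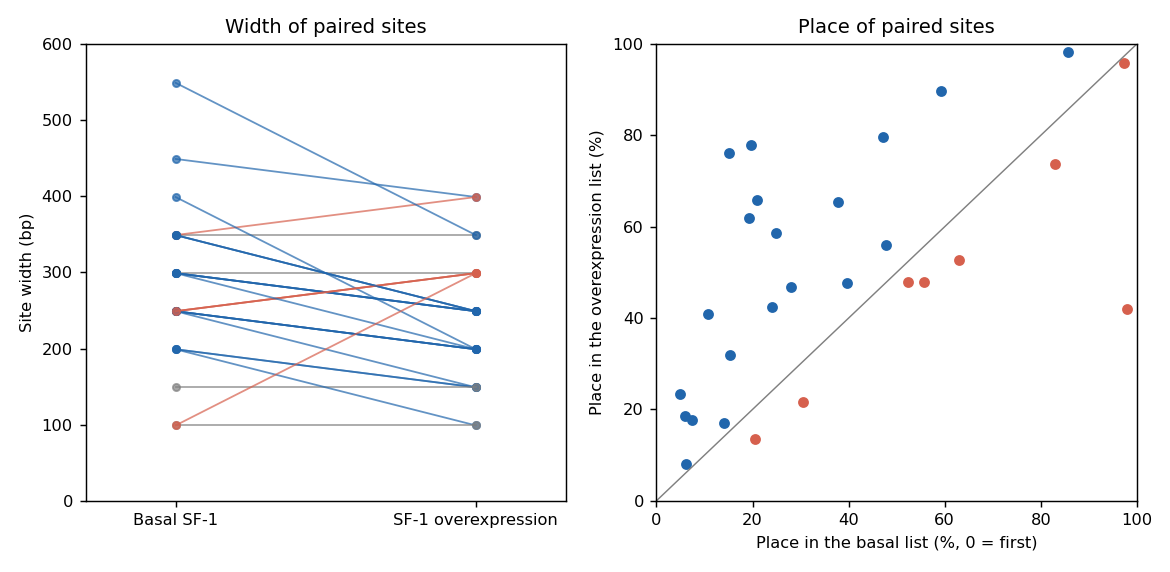
Width in bp (left, 1 line for each of 28 histone sites found in both lists) and place in the list in percent (right, diagonal marks equal place). Blue marks sites narrower or later in the overexpression list, red wider or earlier, grey equal; 19 lines fall and 20 points lie above the diagonal.

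The difference was also looked at by base composition. The basal histone sites had a mean GC content of 44.2% (SD 5.88 over 38 sites), against 64.2% at other protein-coding starts. Among pairs of sites with a basal GC content of 35 to 50%, 18 of 26 histone sites (69.2%, interval 48.2 to 85.7%) were narrower in the overexpression list, against 115 of 246 at other starts (46.7%, interval 40.4 to 53.2%). Within that range 20 of 26 histone sites came later, 76.9% against 61.8% at other starts. Other starts of low GC content were thus also narrower and later more often than starts in general, and the intervals of the histone sites overlap theirs. On chromosome 6 alone few other starts fell in that range, and narrower and later differed. In the same GC range 6 of 25 other starts were narrower (24.0%, interval 9.36 to 45.1%). Among histone sites 17 of 23 were narrower (73.9%, interval 51.6 to 89.8%), and these intervals do not overlap. Later were 12 of 25 other starts (48.0%, interval 27.8 to 68.7%). For histone sites the count and interval for later were the same as for narrower, and the intervals for later overlap. Outside the histone genes, 31.7% of 331 pairs at other chromosome 6 starts were narrower, against 18 of 25 at the chromosome 6 histone genes. Among the genes with a promoter GC content of 35 to 50%, 6 of 53 histone genes had a basal site only and 2 an overexpression site only, against 144 and 144 of 4198 other genes. The part of base composition or depth in the difference was not tested.

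The promoters carried motifs that differed by histone type. The H1 box and the H4 element were added after the promoters were seen, so their shares are description only. In the window from 250 bp upstream to 50 bp downstream, TATAAA stood in 66.2% of histone promoters against 10.9% of all protein-coding promoters, and CCAAT in 84.6% against 35.8%. ATTTGCAT stood in 12 of 17 H2A and 11 of 16 H2B promoters, in 1 of 13 H3 and in 0 of the H1 and H4 promoters, against 1.66% of all. The H3 case is H3C12, whose annotated start lies inside H2AC17, so its window takes in letters between H2AC17 and H2BC17. In a divergent pair the window of each gene holds the stretch between the starts, so both genes count the same letters. All 10 pairs had CCAAT between their starts, 3 to 6 copies each, and 7 had the octamer. ACAAACAC stood in 5 of 6 H1 promoters, all but H1-1, and in 0 other histone promoters, against 1.47% of all. GGTCCG stood in 10 of 13 H4 promoters and in 1 each of the H2A, H2B and H3 promoters, against 12.5% of all.

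These letters did not sort open from missing promoters in the same way. CCAAT stood in 44 of 47 promoters open in either list and in 11 of 18 without a site, and the octamer in 22 of 47 and 2 of 18. TATAAA stood in 29 of 47 and 14 of 18. Of those 18, 14 belong to H4, H3 and H1 genes, and 8 have repeated sequence. Leaving the repeated promoters aside, CCAAT stood in 8 of 10 promoters without a site and the octamer in 2 of 10. The SF-1 motif stood in 2 of 65 histone promoters (3.08%) against 2.61% of all. They were those of H3C8 and H3C12, the latter read at the annotated start inside H2AC17. Among histone sites, 2 of 38 basal and 3 of 34 overexpression sites held the motif. The histone shares were 5.26% (interval 0.644 to 17.7%) and 8.82% (interval 1.86 to 23.7%). At other protein-coding starts 2.62% and 2.93% of sites held it, and over all sites 12.7% and 12.6%, and the histone intervals include both.

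**Figure D5:**
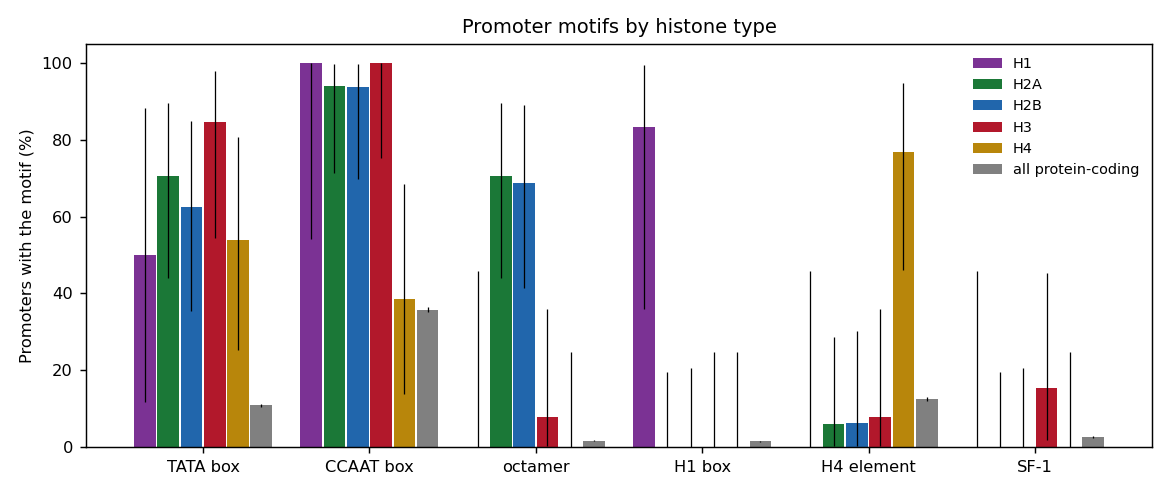
Percent of promoters (250 bp upstream to 50 bp downstream) with each motif, by histone type (6 H1, 17 H2A, 16 H2B, 13 H3, 13 H4) and for all protein-coding genes; bars are shares and lines 95% exact binomial intervals. The octamer stands out in H2A and H2B, the H1 box in H1 and the H4 element in H4.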

How the data were processed

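H295R/TR SF-1 cells with basal or doxycycline-induced SF-1 were profiled by FAIRE-seq, 1 library per condition. The input libraries were not analysed here. The authors deposited, per the file headers, a list of sites for each condition, with a start, an end, a running peak number and a score of 1000 in every line. Coordinates are on hg19 and the submitters' processing notes name CASAVA 1.8. The FAIRE peak caller and its threshold are not given in the sources used here. Sites were compared with GENCODE release 44 genes on GRCh37, and no site ran past a chromosome end. RefSeq promoter sequences were found on GRCh37 for 60 of 65 members, 56 of them within 50 bp of the GENCODE start.

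Open promoters, shared sites (at least 1 bp of overlap), widths, places and motifs were computed in Python 3.11.15 with numpy 2.4.6 and scipy 1.17.1, and the site rules were checked on simulated data. Figures were drawn with matplotlib 3.10.9. With 1 library per condition no test was made between conditions. Members and gene lists were chosen with earlier results of these data known. Values were given in full for the 5 widest and 5 earliest-numbered member sites of each list, sites in 1 list only and members without a site. The paired widths and places, the 200 bp upstream band, the comparison by GC content and chromosome, the repeated words, the H1 box, the H4 element and the pseudogenes were added after the data were seen. Genes chosen after their values were seen are H2AC7, H2AC8, H2AC25/H2BC26, H2BC12/H2AC12, H3C3, H3C12, H2BC6 and the H4 genes with a site.

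An item of the gene lists is not reported here.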

Additional observations from a re-analysis of the deposited data

How the results depend on the processing

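Of 60 alternatives to 9 counts, shares and widths, 50 left the value within 1.5 times, or within its interval, and 10 did not. Requiring a site to cover the start gave 27 open promoters in the basal list, 19 in the overexpression list and 17 in both, from 23 and 17 sites. Dropping sites narrower than 249 bp, the median of both lists pooled, gave 25 in the overexpression list and 22 in both, and a shared share of the basal sites of 58.6%. Keeping the first 50% of each list gave 22 in the overexpression list and 19 in both. Under these rules the share of histone genes open in the overexpression list was 29.2%, 38.5% and 33.8%, against 29.6%, 32.9% and 31.7% of all protein-coding genes, all within the intervals of the histone shares. In the basal list it was 41.5%, 58.5% and 50.8%, against 27.9%, 30.1% and 29.6%. Each of these rules keeps fewer sites, and the cause of the lower shares was not tested. Canonical transcript starts, chosen after seeing the data, gave 44, 37 and 35. Leaving out promoters with repeated sequence, also chosen after seeing the data, gave 44, 37 and 36. The lists hold no depth, so a site near the calling threshold cannot be told from one far above it. No paired analysis was possible because each condition had 1 library.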

Other observations

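Genes that act in the transcription of histone genes, in histone mRNA 3′ end formation or as histone chaperones were looked at beside the clusters. Of 26 such genes, 21 (80.8%) had a site in the basal list and 24 (92.3%) with overexpressed SF-1. Over all protein-coding genes the shares were 39.4% and 41.2%. NPAT, the coactivator of replication-dependent histone genes, had a 549 bp basal site, and SLBP, the protein that binds the stem-loop of histone mRNA, a 399 bp site in both lists. CCNE1, the cyclin that drives entry into S phase, the exonuclease gene ERI1 and the assembly factor gene CHAF1B had a site in the overexpression list only. These 3 of 26 are 11.5% (interval 2.45 to 30.15%), an interval that includes the 6.13% of all protein-coding genes. CPSF2 and ATRX had none.

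Among 11 histone genes outside the clusters, 4 had a site in both lists (H2AX, H2AZ1, H2AZ2 and H3-3B). That is 36.4% (interval 10.9 to 69.2%), close to the 35.0% of all protein-coding genes. H1-10 had a site in the overexpression list only, and no site was called for H2AJ, MACROH2A1, MACROH2A2, H3-3A and H4C16. Of 79 cytosolic ribosomal protein genes, another set of highly used genes, 61 (77.2%) were open in the basal list, against 39.4% of all protein-coding genes. With overexpressed SF-1 65 (82.3%) were open, against 41.2%. Of 15 histone pseudogenes, 7 had a basal site and 8 an overexpression site, beside 39.4% and 41.2% of all protein-coding genes. So few genes do not set the pseudogenes apart from those shares. For 4 of them (H2AC5P, H2AC10P, H4C10P and H2BC16P) a site is that of a neighbouring histone gene.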
